A study of Rattus norvegicus with 6 samples.

Results

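The aryl hydrocarbon receptor (AhR) and the enzymes that activate or clear polycyclic aromatic hydrocarbons were examined in mammary tumors of F344 rats that had received DMBA, a carcinogen of this chemical class. The group holds 9 genes, Ahr, Ahrr, Arnt, Tiparp, Cyp1a1, Cyp1a2, Cyp1b1, Ephx1 and Nqo1, found by symbol among 26195 named rows of the read count table, with 1 row for each gene. Bulk RNA-seq covered 3 tumors from older rats (tumors 102, 107 and 116), treated at 21 to 23 months of age, and 3 tumors from younger rats (tumors 157, 158 and 167), treated at 4 months. All rats were implanted with MPA, a progestin (50 mg pellet), before a single gavage of DMBA at 65 mg per kg. No tumor free of carcinogen or progestin therefore served as a control. Tumors were collected later, at the study's endpoint of tumor size or clinical decline. The levels thus describe grown tumors and not tissue at the time of exposure. The younger group was every tumor that those rats had formed, and the older group was chosen for having enough tissue. Each tumor is 1 library and, by the study's description of its groups, came from its own rat.

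AhR is a transcription factor that waits in the cytoplasm with chaperones, enters the nucleus when a ligand such as a polycyclic aromatic hydrocarbon binds, pairs with ARNT and turns on genes that carry xenobiotic response elements (XREs). Cytochrome P450 enzymes of the CYP1 family are its best known targets, and they oxidize the same hydrocarbons. Microsomal epoxide hydrolase then opens the epoxides that CYP1B1 forms, and a further oxidation yields the reactive diol epoxides of DMBA that bind DNA. AHRR and TIPARP are induced by AhR and restrain it.

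The promoters were searched close to the start for the letters that AhR and ARNT read, and the genes with an XRE core there are shown. XREs farther upstream were outside the search. RefSeq promoters (build GRCr8, whereas the reads were counted on mRatBN7.2) were found for 8 of the 9 genes, Cyp1a1 being the other one, and the 250 bases before the annotated start were searched for the core GCGTG on both strands. Capitals mark the core or its reverse complement, each stretch is written 5′ to 3′ on the gene's strand, and a match is a match of letters only.

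Ahrr, plus strand, chr1:30822065-30822178: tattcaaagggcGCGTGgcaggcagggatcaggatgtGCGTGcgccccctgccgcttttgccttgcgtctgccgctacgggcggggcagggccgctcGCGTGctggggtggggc
Cyp1b1, plus strand, chr6:21094472-21094561: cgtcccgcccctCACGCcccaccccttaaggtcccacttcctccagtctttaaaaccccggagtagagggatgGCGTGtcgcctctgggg
Tiparp, plus strand, chr2:152063621-152063649: ctctgtcaggcgCACGCgcacgggaggcg
Arnt, plus strand, chr2:185686649-185686677: ccatggtatgggGCGTGtcttctccccca
Nqo1, minus strand, chr19:52220268-52220289: cctaggctgtggCACGCaggat

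Ahrr held 3 cores, Cyp1b1 held 2, and Tiparp, Arnt and Nqo1 held 1 each. No core was found in these windows of Ahr, Cyp1a2 or either promoter listed for Ephx1. The core is common, with at least 1 match in 25.9% of the 33469 promoters of the same length. The longer form TNGCGTG, which contains the core, stood in 4.09% of them and was found for Ahrr and Cyp1b1, with its first base 59 and 22 bases before the start.

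The tumors differed in depth and in the levels of cell type markers. Totals over named rows ran from 3394451 to 6383983 counts, so that 3 counts, taken as the floor, stood for 0.530 to 1.03 CPM. Levels are in CPM, counts per 1000000 counts of the tested genes, scaled by edgeR's TMM factors. Tumor 102, from an older rat, stood apart in the marker lists. Its 4 basal and myoepithelial markers summed to 281 CPM, against 606 to 2024 CPM in the other tumors. Its 5 adipocyte markers summed to 176 CPM, against 6.17 to 33.6 CPM. Fabp4 made up 135 CPM of this sum. Adipoq, Plin1, Cidec and Fabp4 were highest in tumor 102, and Lep was highest in tumor 107. In a bulk sample, fewer cells of a type and less RNA per cell cannot be told apart.

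Between older and younger tumors, 0 of the 9 genes passed the test. Of the 9, 6 had enough counts to be tested, while Ahrr, Cyp1a1 and Cyp1a2 fell below the filter on low counts. At a threshold of 0.05 on the Benjamini-Hochberg adjusted p of edgeR (quasi-likelihood fit), 0 genes were called among the 13139 genes tested (0%), and 1128 had an unadjusted p under 0.05. At that unadjusted level 1 of the 6 tested genes was lower in older tumors (Ephx1) and 0 were higher, where 3.29% of all genes tested were lower and 5.3% higher. DESeq2 called 345 genes (2.37% of the 14556 it adjusted) and limma-voom 0, and 0 of these 9 genes were among them. Counted by sign, 3 of the 6 had positive log2 fold changes (higher in older tumors) and 3 negative ones, with a median of 0.11, against -0.00 over all genes tested. Without tumor 102 all 6 signs were negative, with a median of -0.12, against -0.03 over all genes tested.

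**Figure D1:**
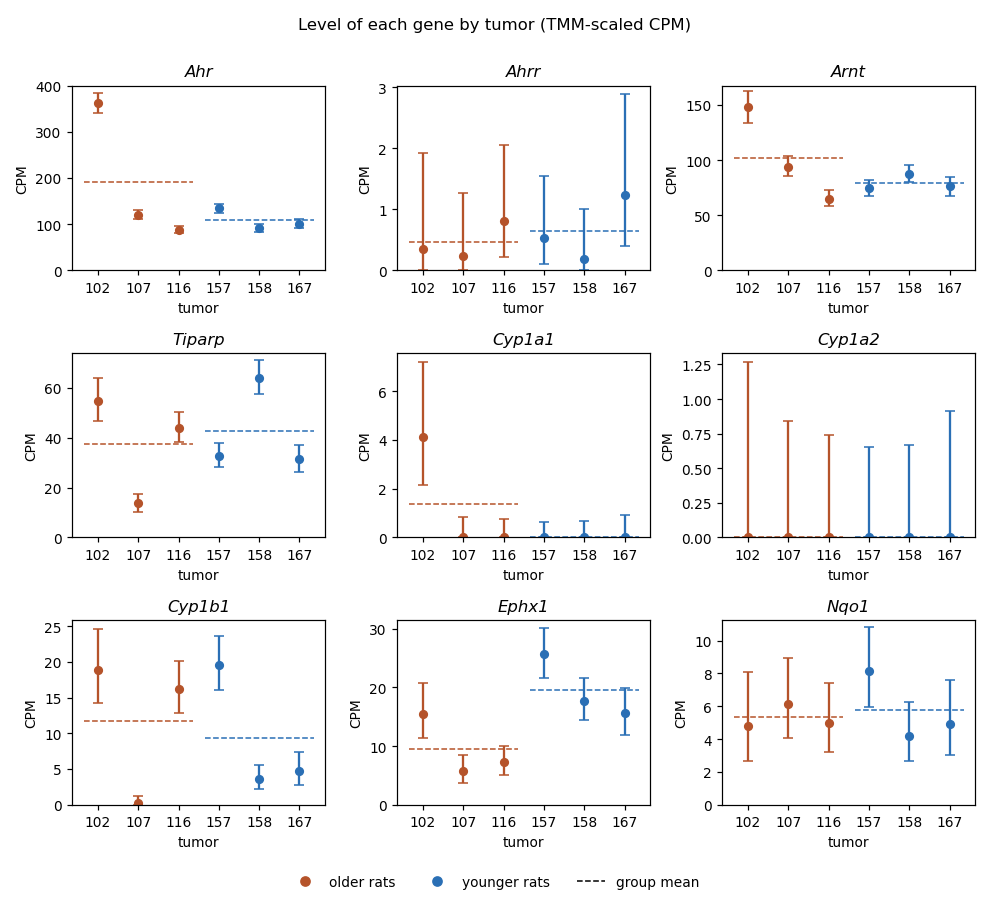
Level of each of the 9 genes in CPM (TMM-scaled, linear axes from 0) in each tumor, with exact 95% binomial intervals of the count as bars and group means as dashed lines. Tumor 102 is highest for Ahr at 363 CPM and is the single tumor with Cyp1a1 counts, and the groups overlap for every gene but Ephx1.

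Ahr, the receptor, was at similar levels in 5 of the 6 tumors and stood out in tumor 102. In older tumors it was at 363 CPM (tumor 102), 120 CPM (107) and 87.9 CPM (116). In younger tumors it was at 134 CPM (157), 91.7 CPM (158) and 99.98 CPM (167). The other older tumors thus lay within or below the younger range, and tumor 102 was at 3.4 times the mean of the other 5. By counting error alone, the interval of tumor 102 (341 to 385 CPM) lay clear of all others. The intervals of its nearest neighbors in rank, tumor 157 (125 to 144 CPM) and tumor 107 (110 to 131 CPM), overlapped. Older tumors averaged 190 ± 150 CPM (SD, n = 3) and younger tumors 109 ± 22.4 CPM (SD, n = 3). For Ahr the log2 fold change was 0.81 (adjusted p = 0.782 in edgeR, standard error 0.52), and without tumor 102 it was -0.07.

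Arnt, the partner that AhR needs to bind DNA and that HIF proteins share, varied less. It was at 148, 94.1 and 65.1 CPM in older tumors 102, 107 and 116. In younger tumors 157, 158 and 167 it was at 74.6, 87.7 and 76.0 CPM. Tumor 102 was again the highest, at 1.86 times the mean of the other tumors, and tumor 116 the lowest, so the older group spanned the younger one. Older against younger, Arnt had a log2 fold change of 0.36 (adjusted p = 0.864 in edgeR, standard error 0.32) and of -0.01 without tumor 102.

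Of the genes that restrain AhR, Tiparp could be compared between the groups and Ahrr could not. Ahrr, the AhR repressor that competes for ARNT and has 3 XRE cores in the promoter window shown above, was barely detected. Its counts were 1, 1 and 4 in older tumors 102, 107 and 116. In younger tumors 157, 158 and 167 they were 3, 1 and 5. It thus reached the floor of 3 counts in 3 of 6 tumors, and a difference was not detectable at this depth. Tumor 102, with the most Ahr, had 1 Ahrr count, whose exact 95% interval reached 1.92 CPM, above the value of every tumor (at most 1.23 CPM).

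Tiparp, an ADP-ribosyltransferase that modifies AhR and lowers its activity, was well measured and varied 4.7-fold among tumors. In older tumors it was at 54.7 CPM (102), 13.6 CPM (107) and 44.1 CPM (116). In younger tumors it was at 32.7 CPM (157), 64.0 CPM (158) and 31.4 CPM (167). The lowest value belonged to an older tumor and the highest to a younger one, and both groups held high and low tumors. Tiparp had a log2 fold change of -0.19 (adjusted p = 0.967 in edgeR, standard error 0.53). It was 0.20 without older tumor 107 and 0.23 without younger tumor 158, and -0.57 without older tumor 102.

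The 3 CYP1 genes differed in how they were detected. Cyp1a1, the classical AhR target that oxidizes aromatic hydrocarbons, had 12 counts in older tumor 102 and 0 in each of the other 5 tumors. In tumor 102 this was 4.13 CPM (exact 95% binomial interval 2.13 to 7.22 CPM, counting error only). On the same interval, a count of 0 allowed up to 0.652 to 0.911 CPM in the other tumors (0.530 to 0.741 CPM at the floor of 3 counts), so the interval of tumor 102 lay above theirs. Cyp1a2, a near relative of Cyp1a1 that is mainly a liver enzyme, had 0 counts in all 6 tumors. On the exact interval this allowed up to 0.652 to 1.27 CPM (0.530 to 1.03 CPM at the floor of 3 counts). Of the 5 hepatocyte markers, Alb, Ttr and Serpina1 were also at 0 counts in all 6 tumors. Apoa1 was at most at 0.455 CPM, with counts in tumors 107 and 116. Cyp2e1, which is not confined to the liver, was highest in tumor 102 at 9.98 CPM, against 0.909 to 3.62 CPM in the others, and its part in the Cyp1a1 counts was not tested. As Cyp1a1 and Cyp1a2 are similar in sequence, the assignment of reads between them is uncertain.

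Cyp1b1, the CYP1 enzyme of tissues outside the liver and the one best known for activating DMBA, had the widest range of the tested genes. In older tumors it was at 18.9 CPM (102, 55 counts), 0.227 CPM (107, 1 count) and 16.2 CPM (116, 81 counts). In younger tumors it was at 19.6 CPM (157, 111 counts), 3.62 CPM (158, 20 counts) and 4.69 CPM (167, 19 counts). Tumors 102, 116 and 157 formed a high set whose intervals overlapped, tumors 158 and 167 lay lower, and tumor 107 was under the floor. Age did not order them. Its log2 fold change was 0.32 (adjusted p = 0.975 in edgeR, standard error 1.13), whereas the difference between group means of log2 CPM was -0.32, so the sign depended on the scale. The sign also turned without tumor 102, 116 or 158 and with limma-voom, where the value was -0.74. Without younger tumor 157 the value was 1.49, and without older tumor 107 it was 0.91.

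Fibroblast genes also varied widely between tumors. The 6 fibroblast markers (Col1a1, Col1a2, Pdgfra, Pdgfrb, Dcn and Lum), all detected, summed to 1117, 136 and 473 CPM in older tumors 102, 107 and 116. They summed to 864, 712 and 125 CPM in younger tumors 157, 158 and 167. Col1a1 and Col1a2 made up most of each sum. By sign these 2 were lower in older tumors and the other 4 markers were higher. Dcn was at 168, 2.27 and 63.3 CPM in tumors 102, 107 and 116 and at 25.5, 26.8 and 4.20 CPM in tumors 157, 158 and 167. Tumor 107 was low in both Cyp1b1 and the fibroblast sum, as was tumor 167, while tumor 158 was low in Cyp1b1 and not in the sum. The part of fibroblast content in the Cyp1b1 levels was not tested.

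**Figure D2:**
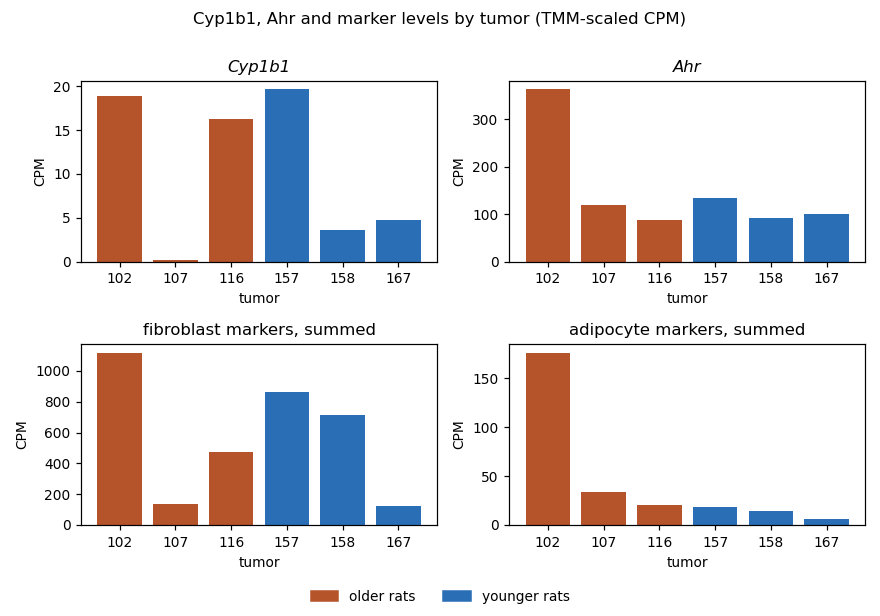
Cyp1b1, Ahr and the summed levels of 6 fibroblast and 5 adipocyte markers in each tumor, as bars in CPM (TMM-scaled, from 0). Tumor 107 has the lowest Cyp1b1 at 0.227 CPM beside fibroblast markers of 136 CPM, and tumor 102 has the highest Ahr beside the highest adipocyte sum at 176 CPM.

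Ephx1, microsomal epoxide hydrolase, was the gene with the smallest p among the 9, lower in older tumors, and did not pass the adjusted test. In older tumors it was at 15.5 CPM (102), 5.68 CPM (107) and 7.21 CPM (116). In younger tumors it was at 25.6 CPM (157), 17.7 CPM (158) and 15.6 CPM (167). All older tumors lay below all younger ones, by a narrow margin between tumors 102 and 167, whose counting intervals (11.3 to 20.7 and 11.95 to 19.9 CPM) overlapped. Groups without overlap and lower in older tumors made up 5.58% of all genes tested, and 6.51% were higher. The order held with library totals and with median-of-ratios size factors in place of TMM.

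Older tumors averaged 9.46 ± 5.28 CPM of Ephx1 (SD, n = 3) and younger tumors 19.6 ± 5.31 CPM (SD, n = 3). On the log2 scale the difference was -1.07 (standard error 0.46, unadjusted p = 0.048 and adjusted p = 0.577, edgeR). Leaving out each tumor gave values from -1.61 to -0.81, the first without tumor 102, and the adjusted p ran from 0.378 to 0.9997 over all settings (edgeR, limma-voom and DESeq2). Without any 1 of the other 5 tumors the unadjusted p of edgeR was between 0.0532 and 0.165, and without tumor 102 it was 0.00481 (adjusted p = 0.385). The 4 luminal epithelial markers found (Epcam, Cdh1, Krt8 and Krt18) were also lower in sum in older tumors, at 1138 to 1229 CPM against 1479 to 1731 CPM. Singly, Epcam and Krt8 were lower in all older tumors, while Cdh1 and Krt18 (log2 fold change -0.08) had groups that overlapped. The 4 basal and myoepithelial markers found had a median log2 fold change of -1.02, with sums that overlapped. The part of epithelial content in the Ephx1 values was not tested.

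Nqo1, a quinone reductase under both AhR and NRF2 that clears quinones of aromatic hydrocarbons, was low and even. Older tumors 102, 107 and 116 were at 4.82, 6.14 and 5.01 CPM. Younger tumors 157, 158 and 167 were at 8.13, 4.16 and 4.94 CPM. The older values lay inside the younger range, and tumor 102, with high Ahr and detected Cyp1a1, was not seen to be raised in Nqo1. Its 14 counts had an exact 95% interval of 2.64 to 8.09 CPM, so a moderate rise could not have been seen. Nqo1 had a log2 fold change of -0.11 (adjusted p = 0.978 in edgeR, standard error 0.43), and of 0.22 without tumor 157.

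**Figure D3:**
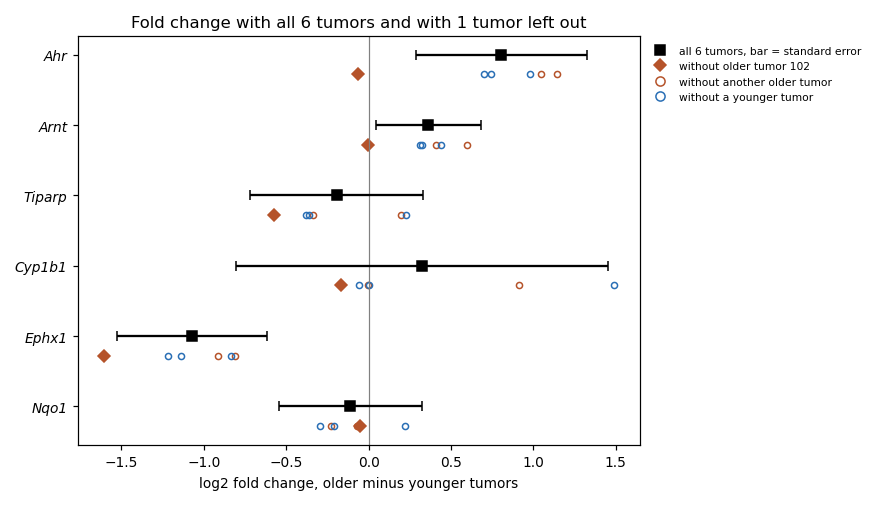
Log2 fold change of the 6 tested genes, older minus younger tumors, with all 6 tumors (squares, bars for the standard error) and with each tumor left out in turn (diamonds for tumor 102, circles for the others). Ephx1 stays below 0 in all fits, from -1.61 to -0.81, while Ahr goes from 0.81 to -0.07 without tumor 102.

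The wider pathway gave 0 called genes in either direction in each of 7 lists, with edgeR's adjusted p over all genes tested. Pathway genes given below with a fold change were picked as the largest of their list in either direction, except Il4i1, Kmo and Kyat3. The AhR chaperones, partners and coactivators had 12 of 12 genes tested, 7 higher and 5 lower by sign, and a median log2 fold change of 0.06 (-0.01 without tumor 102). Arnt2, another AhR partner, had a log2 fold change of -1.01 (SE 0.83), and the chaperone Hsp90aa1 had -0.65 (SE 0.48). On the other side stood Bmal1, a clock relative of ARNT, at 0.35 (SE 0.27) and the coactivator Crebbp at 0.31 (SE 0.32). None of the 4 had an unadjusted p under 0.05.

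Other AhR targets were detected in part. Of 10 genes listed, 9 were in the table, 5 were tested, and Gsta2 had 0 counts in all tumors. Among the 5, 3 were higher and 2 lower, with a median log2 fold change of 0.07 (0.12 without tumor 102) and 0 at an unadjusted p under 0.05. Scin, which encodes the actin-severing scinderin, had the highest log2 fold change at 1.28 (SE 1.06), followed by Xdh, xanthine dehydrogenase, at 0.58 (SE 0.81). The amino acid transporter gene Slc7a5 was at -0.65 (SE 0.43) and the P450 gene Cyp2s1 at -0.09 (SE 0.56).

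Among the enzymes that make AhR ligands from tryptophan and related amino acids, 5 of 10 genes were tested and all 5 had positive log2 fold changes, with a median of 1.01. Without tumor 102 the median was 0.59. Tdo2 had no counts, and Ido1, Ido2, Kynu and Kyat1 were below the filter. Il4i1, an amino acid oxidase of immune cells, was at 22.7, 12.7 and 9.61 CPM in older tumors 102, 107 and 116 and at 8.13, 7.60 and 6.42 CPM in younger tumors 157, 158 and 167. It was higher in all older tumors (log2 fold change 1.01, standard error 0.42, unadjusted p = 0.043 and adjusted p = 0.557, edgeR) and was singled out after its values were seen. Afmid, kynurenine formamidase, was at 1.57 (SE 0.92) and Aadat, a kynurenine aminotransferase, at 1.30 (SE 0.78), both with overlap between the groups. The 5 macrophage markers, all detected, summed to 325 to 371 CPM in older and 117 to 501 CPM in younger tumors, where Cd14 made up 421 CPM of the highest sum. Of these markers Csf1r, Cd68 and Adgre1 were each higher in all older tumors. Their unadjusted p was 0.0176, 0.00832 and 0.0275 and their adjusted p from 0.342 to 0.490 (edgeR). Mrc1 (log2 fold change 1.22, SE 0.65) and Cd14 (-0.32, SE 0.69) had groups that overlapped. Over all genes tested, 6.51% were without overlap and higher in older tumors. The part of macrophage content in the Il4i1 levels was not tested.

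Por, the P450 reductase that passes electrons to every CYP1 enzyme, was lower in all older tumors. It was at 54.7, 55.7 and 37.8 CPM in tumors 102, 107 and 116. In younger tumors 157, 158 and 167 it was at 97.6, 90.1 and 63.7 CPM. Its log2 fold change was -0.76 (unadjusted p = 0.0246 and adjusted p = 0.471 in edgeR, standard error 0.27). Within its list of other phase I enzymes and electron donors, 9 of 16 genes were tested, 2 higher and 7 lower by sign, with a median of -0.06 (-0.09 without tumor 102). Ptgs1, cyclooxygenase 1, was higher in all older tumors (1.02, SE 0.38, adjusted p = 0.496, edgeR). Akr7a2, an aldehyde reductase, was lower in all of them (-0.53, SE 0.30), and Cyb5b, a cytochrome b5, was at 0.04 (SE 0.28). Over all genes tested, 5.58% were without overlap and lower in older tumors, and 6.51% were without overlap and higher.

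The conjugating enzymes attach glutathione, sulfate, acetyl or methyl groups to oxidized products. Their list, which also holds the quinone reductase Nqo2, had 18 of 21 genes tested. By sign 6 were higher and 12 lower, with a median log2 fold change of -0.32 (-0.33 without tumor 102). Sult1a1, a phenol sulfotransferase, was at 31.3, 7.05 and 9.41 CPM in older tumors 102, 107 and 116. It was at 4.95, 4.34 and 4.20 CPM in younger tumors 157, 158 and 167, below every older tumor (1.80, SE 0.61, adjusted p = 0.437, edgeR). Mgst3, a microsomal glutathione transferase, was lower in all older tumors (-1.09, SE 0.37, adjusted p = 0.432, edgeR). Gsta4 at 1.11 (SE 1.19) and Sult2b1 at -1.44 (SE 0.92) had groups that overlapped. Groups without overlap made up 6.51% (higher in older tumors) and 5.58% (lower) of all genes tested. Genes of these families resemble each other, so their read assignment is uncertain.

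Abcg2, an efflux transporter that also carries compounds into milk, had the largest fold change of these lists. Older tumors 102, 107 and 116 were at 29.3, 46.4 and 3.40 CPM. Younger tumors 157, 158 and 167 were at 1.06, 2.89 and 0.741 CPM, with tumor 116 only just above them. Genes without overlap and higher in older tumors made up 6.51% of all genes tested. Abcg2 had a log2 fold change of 4.02 (unadjusted p = 0.00375 and adjusted p = 0.315 in edgeR, standard error 0.98). Of 5 transporters 3 were tested, with Abcc1 at -0.07 (SE 0.27) and Abcc4 at -1.06 (SE 0.48) on the other side. The list median was -0.07, and 0.73 over the 4 transporters tested without tumor 102.

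NRF2 targets, which share Nqo1 with AhR, were lower by sign for 8 of 10 tested genes, with a median log2 fold change of -0.38 and of -0.96 without tumor 102. Hmox1, heme oxygenase 1, was at 137, 16.4 and 29.4 CPM in older tumors 102, 107 and 116 and at 571, 333 and 47.9 CPM in younger tumors 157, 158 and 167, with overlap (-2.39, SE 1.02, adjusted p = 0.578, edgeR). Gclm was at 0.09 (SE 0.27) and Osgin1 at 0.07 (SE 0.52).

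**Figure D4:**
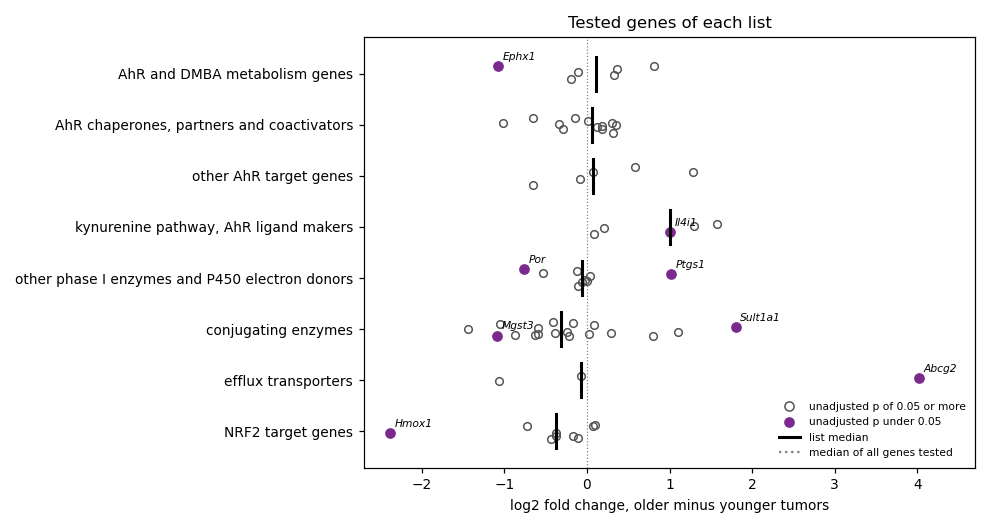
Log2 fold change, older minus younger tumors, of the tested genes in the 9-gene group and 7 further lists (points, with 1 NRF2 target not shown, filled and named where the unadjusted p is under 0.05), with list medians as black bars and the median of all genes tested as a dotted line. Ephx1 at -1.07 and Por at -0.76 lie to the left, and Sult1a1 at 1.80 and Abcg2 at 4.02 to the right, with 0 genes past the adjusted threshold.

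In the 10 marker lists no gene was called. Log2 fold changes had a median of -0.44 for luminal epithelial, -1.02 for basal and myoepithelial, 0.90 for fibroblast, 0.16 for endothelial and 1.22 for macrophage markers. Medians were 1.57 for adipocyte, -0.08 for skeletal muscle and 2.38 for T cell markers, the last from 2 tested genes. Without tumor 102 the fibroblast median was -0.17, the endothelial median -0.03, the adipocyte median -0.02 and the skeletal muscle median 0.38. The basal median was then -0.60 and the T cell median, over 3 tested genes, 3.0004. Endothelial sums were 102 to 402 CPM in older and 69.4 to 311 CPM in younger tumors, T cell sums 16.2 to 86.1 and 4.52 to 8.66 CPM, and skeletal muscle sums 7.61 to 56.8 and 18.8 to 28.8 CPM. B cell markers summed to at most 1.59 CPM in any tumor, with Cd79b and Ms4a1 at 0 counts, and none was tested. Sums of T cell and adipocyte markers (higher in older tumors) and of luminal markers (lower) did not overlap between the age groups. For adipocyte markers the margin was narrow, between older tumor 116 and younger tumor 157, and each single marker overlapped between the groups. Fabp4 made up most of the adipocyte sum in tumor 102, and Lep most of it in tumor 107. Among all genes tested, single genes without overlap made up 6.51% (higher in older tumors) and 5.58% (lower). B cell sums did not overlap either (0.344 to 0.801 CPM in older and 1.09 to 1.59 CPM in younger tumors), but lay about the floor of 3 counts, so no order is read from them. Of the hepatocyte markers Cyp2e1 alone was tested, at 0.59 (SE 0.83), and at -0.76 without tumor 102.

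Genes whose levels followed Ahr most closely across the tumors shared its peak in tumor 102. Among 10315 genes with a mean of at least 10 CPM, the highest Pearson correlations with the log2 CPM of Ahr over the 6 tumors were 0.995 for Nampt, 0.994 for Kdm2a and 0.994 for Nub1. Nampt, which encodes an enzyme of NAD synthesis, was at 767 CPM in tumor 102 and at 187 to 266 CPM in the others. Without the tumors farthest from the median of Ahr, 102 and 116, the correlations of the 3 genes were 0.943, 0.949 and 0.965. These are descriptions of 6 libraries, picked as the highest of many, and carry no test.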

How the data were processed

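RNA of 6 rat mammary tumors, 3 from older and 3 from younger rats, was sequenced after removal of ribosomal RNA with paired reads of 150 bases (the labels give polyA RNA and 100 bases). The authors used FastQC 0.11.7, Trimmomatic 0.38, STAR 2.7.9a, Picard 2.18.12 and HTSeq 0.13.5, and deposited unnormalized read counts per gene, per the labels on build mRatBN7.2. The annotation, the strand setting and the treatment of marked duplicates are not given in the sources used here. Columns were matched by tumor number, and 0 were left unused.

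Of 30562 rows, 4367 have no gene name, 2.17% to 3.64% of the counts of a tumor, and were left out of library sizes and tests. Lists used the row with most counts where a name had several. All 9 genes are RefSeq symbols. Tests were run on these counts with edgeR 4.0.16 under R 4.3.3 (filterByExpr by age group, 13139 rows, TMM, quasi-likelihood test without covariates, Benjamini-Hochberg adjustment over all genes tested, threshold 0.05), limma 3.58.1 and DESeq2 1.42.0, and the scripts were tested on simulated data. The study's methods name DESeq2 without settings, which was run as an alternative. The F statistic gave the standard errors, a prior count of 2 was added for log2 CPM, and intervals are exact binomial at 95%. Totals of 3394451 to 6383983 counts set a floor of 3 counts at 0.530 to 1.03 CPM, and intervals and floors cover counting error only. With 3 tumors against 3, p-values set the difference between the age groups against the spread between these tumors within a group.

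The genes and lists (7 pathway and 10 marker lists) were chosen with earlier results of these data known. From each pathway list, the 2 genes with the largest positive and the 2 with the largest negative fold change were named among tested genes with a mean of at least 1 CPM, and the 3 genes most like Ahr by Pearson correlation. Of these, 1 NRF2 target is not reported here by name and stays in the counts and medians of its list. Alternatives were DESeq2 size factors, library totals, DESeq2, limma-voom, at least 1 count, at least 10 counts in every tumor, leaving out the 10 most abundant genes, a prior count of 0.5 and leaving out each tumor. Keeping rows without a name, and the list counts without tumor 102, were added after seeing the data. Other assays of these tumors were not used.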

Additional observations from a re-analysis of the deposited data

How the results depend on the processing

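No paired analysis was possible because no replicate number occurs in both age groups. None of the 9 genes was called in any of the 14 other settings that were run. The count over all genes was 0 in each of them except DESeq2's Wald test, with 345 genes (233 higher and 112 lower in older tumors); the cause was not tested. Of 83 recomputed log2 fold changes of the 6 tested genes, 74 kept their direction and 9 reversed. Without older replicate 102, Ahr was at -0.065, Arnt at -0.0062 and Cyp1b1 at -0.17. Cyp1b1 was also at -0.0049 without older replicate 116, at -0.06 without younger replicate 158 and at -0.74 with limma-voom. Tiparp was at 0.20 without older replicate 107 and at 0.23 without younger replicate 158, and Nqo1 was at 0.22 without younger replicate 157. Leaving out each tumor gave a range of -0.065 to 1.14 for Ahr, -0.0062 to 0.60 for Arnt, -0.57 to 0.23 for Tiparp, -0.17 to 1.49 for Cyp1b1, -1.61 to -0.81 for Ephx1 and -0.29 to 0.22 for Nqo1. Ephx1 kept its direction in all 14. A prior count of 0.5 moved no log2 CPM difference of the 9 genes by more than the spread between tumors. With at least 10 counts in every tumor, Cyp1b1 could not be tested. Depth limits Ahrr, with 1 to 5 counts in each tumor, Cyp1a1, with counts in tumor 102 alone, and Cyp1a2, with none.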
